A study of Mus musculus with 62 samples.

Results

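The comparison set the diaphragms of mice with a cachectic melanoma against those of mice with a melanoma that does not cause wasting, 6 weeks after the tumor cells were given. All libraries whose labels name either tumor at this time were taken, 5 from each arm, so 10 of the 62 libraries of the series entered the contrast. All mice were 2-month-old females, and each tumor-bearing mouse received patient-derived pediatric melanoma cells under the skin of the flank, the cachectic xenograft in one arm and the non-cachectic xenograft in the other. Controls were mock injected with no tumor cells. The labels name the strain as C57BL/6J, whereas the design text and the study's methods name NCI Ath/nude, an athymic strain that lacks mature T cells and accepts human tumors. Each tumor arm stands for 1 donated tumor, so the 2 tumors differ in their donor as well as in whether they cause wasting. The diaphragm is the main breathing muscle, and a piece of it is bulk tissue in which fewer cells of a type and less RNA per cell cannot be told apart.

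Cachexia is the loss of muscle and fat that accompanies many cancers. Cytokines released by the tumor or the host, above all those of the interleukin-6 family, act through receptors that activate the transcription factor STAT3, which in liver and muscle drives acute phase proteins and its own feedback inhibitor, Socs3. Glucocorticoids act through the glucocorticoid receptor on an overlapping set of genes, and zinc and glucocorticoids both induce the metallothioneins. In wasting muscle the ubiquitin ligases Fbxo32 (atrogin-1) and Trim63 (MuRF1) mark proteins for the proteasome, and lysosomes degrade others by autophagy.

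Expression was measured as TPM, a level per transcript length scaled to the same total in every library. Of the genes, 13578 reached 1 TPM in 5 or more of the 62 libraries and were tested on log2(TPM + 1) with limma. A gene was called where the Benjamini-Hochberg adjusted p was under 0.05 and the log2 fold change, cachectic minus non-cachectic, was over 1 in either direction, and a gene passed the test where its adjusted p alone was under 0.05. In what follows the 5 TPM values of a group stand in replicate order, the SE belongs to the log2 fold change and p-values come from that fit unless another test is named.

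Both groups carried the RNA of skeletal muscle. Acta1, the actin of skeletal muscle, lay between 21735 and 38839 TPM and Ckm, its creatine kinase, between 4790.5 and 6476 TPM in the 10 libraries. The libraries listed between 17909 and 18597 genes above 0, and the groups did not differ in this number beyond their spread (exact two-sided permutation test, p = 0.532). Mitochondrially encoded transcripts took 39.6% ± 3.76 of all TPM in cachectic mice and 46.0% ± 1.90 in non-cachectic mice (SD, n = 5 each), lower by 6.31 percentage points (exact two-sided permutation test, p = 0.0238, where the smallest possible p is 0.00794). The median log2 fold change over all genes tested was 0.14 in TPM and 0.01 after median-ratio scaling, and the part of the mitochondrial share in this shift was not tested. Among cachectic mice, replicate 1 was the extreme one, with the highest value in 106 of the 155 genes called higher and the lowest in 29 of the 53 called lower, and its mitochondrial share was the lowest at 34.3%. Replicate 5 held liver transcripts, with 2720 TPM of Alb, the serum albumin gene, where the other cachectic mice had 0.024 to 39.7 TPM and the non-cachectic mice 0.498 to 98.0 TPM. The part of other tissue in these values was not tested.

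Sequences just upstream of 5 genes that rose together are shown, because they come from the metallothionein pair, the STAT3 feedback loop and the acute phase genes on which the results turn. They are the 250 bases before the start site in RefSeq's table for GRCm38.p6, 5′ to 3′ on the gene's strand, in lower case. In the Mt1 and Mt2 sequences capitals mark the core of the metal response element (TGCACNC on either strand), in Serpina3n one arm of the glucocorticoid receptor site (AGAACA), in Socs3 a STAT site (TTCNNNGAA) and in Saa1 a C/EBP site (TTGCNNAA).
Mt1 (chr8:94178839-94179088, plus strand): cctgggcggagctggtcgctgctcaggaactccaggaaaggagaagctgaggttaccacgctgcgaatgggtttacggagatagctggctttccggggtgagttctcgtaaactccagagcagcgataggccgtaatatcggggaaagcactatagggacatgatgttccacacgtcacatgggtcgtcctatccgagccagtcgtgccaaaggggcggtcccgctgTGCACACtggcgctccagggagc
Mt2 (chr8:94172368-94172617, plus strand): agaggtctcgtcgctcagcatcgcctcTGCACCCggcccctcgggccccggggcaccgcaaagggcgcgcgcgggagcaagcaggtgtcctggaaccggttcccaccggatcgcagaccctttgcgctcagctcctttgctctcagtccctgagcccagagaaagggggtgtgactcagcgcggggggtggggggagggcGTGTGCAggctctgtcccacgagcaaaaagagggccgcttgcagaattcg
Serpina3n (chr12:104406458-104406707, plus strand): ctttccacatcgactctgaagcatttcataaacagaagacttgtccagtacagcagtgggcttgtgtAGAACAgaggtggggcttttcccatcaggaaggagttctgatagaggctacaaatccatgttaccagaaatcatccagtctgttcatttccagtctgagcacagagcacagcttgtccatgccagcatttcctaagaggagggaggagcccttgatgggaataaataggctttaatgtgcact
Socs3 (chr11:117969367-117969616, minus strand): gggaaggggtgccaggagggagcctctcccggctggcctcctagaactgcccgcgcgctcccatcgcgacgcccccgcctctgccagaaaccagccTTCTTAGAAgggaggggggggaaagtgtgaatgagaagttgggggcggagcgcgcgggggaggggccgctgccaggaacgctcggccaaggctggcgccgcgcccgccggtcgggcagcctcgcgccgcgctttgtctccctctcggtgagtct
Saa1 (chr7:46742981-46743230, minus strand): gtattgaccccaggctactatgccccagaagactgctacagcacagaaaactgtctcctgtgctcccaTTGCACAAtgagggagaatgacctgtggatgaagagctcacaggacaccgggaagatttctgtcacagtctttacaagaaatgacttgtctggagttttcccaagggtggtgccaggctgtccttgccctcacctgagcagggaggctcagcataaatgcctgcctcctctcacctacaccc
The metal core occurred once in Mt1 and 2 times in Mt2, the other patterns once each in the gene they are marked in. Such short patterns are common. Of 32851 upstream windows of this length, 10.4% held the metal core, 16.1% the glucocorticoid receptor letters, 7.02% the STAT pattern and 9.56% the C/EBP pattern. Among the genes called higher, 103 matched the table by symbol, and 9.71%, 14.6%, 12.6% and 14.6% of these held the same patterns, beside 10.7%, 11.1%, 6.12% and 8.01% of the 10082 tested genes that matched. Of the 38 matched genes called lower, 10.5%, 7.89%, 5.26% and 7.89% held them. Another form of the metal core (TGCGCNC) was in 14.6% of the matched genes called higher and in 21.5% of those tested. For the kappaB pattern these shares were 24.3% and 22.3%. A match is a string of letters and was not tested as a binding site, and a missing match says only that the letters are not in this window.

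At 6 weeks the cachectic diaphragm differed from the non-cachectic one mainly by genes that were higher. Of 13578 genes, 155 (1.14%) were called higher and 53 (0.39%) lower in cachectic mice. By adjusted p alone 581 genes (4.28%) were higher and 213 (1.57%) lower, 794 in all, against 2415 at an unadjusted p under 0.05. The number passing by adjusted p depended on which libraries set the spread. It was 3302 in a fit over the 10 libraries compared and 4283 over the 15 at 6 weeks. Without the 4 libraries of other weeks that list the fewest genes, a choice made after seeing the data, it was 3700. Statements that a gene did or did not pass hold for the fit over all 62 libraries unless another fit is named. The called genes higher in cachectic mice were 74.5% of all calls, but 60.8% (124 of 204) after median-ratio scaling and 58.0% (120 of 207) after quantile normalization, so the excess of higher genes was smaller on those scales. Without cachectic replicate 1, 95 genes were called higher and 36 lower, which makes this mouse the one that moved the count most. Dunn's rank test over the 12 conditions, the study's own kind of test, called 0 genes after adjustment over all genes and 186 higher and 63 lower at an unadjusted p under 0.05. The 2 groups of 5 did not overlap in 146 of the 155 genes called higher and in 48 of the 53 called lower. Over all genes tested the groups lay apart with the cachectic mice above in 13.6% and below in 3.3%.

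**Figure D1:**
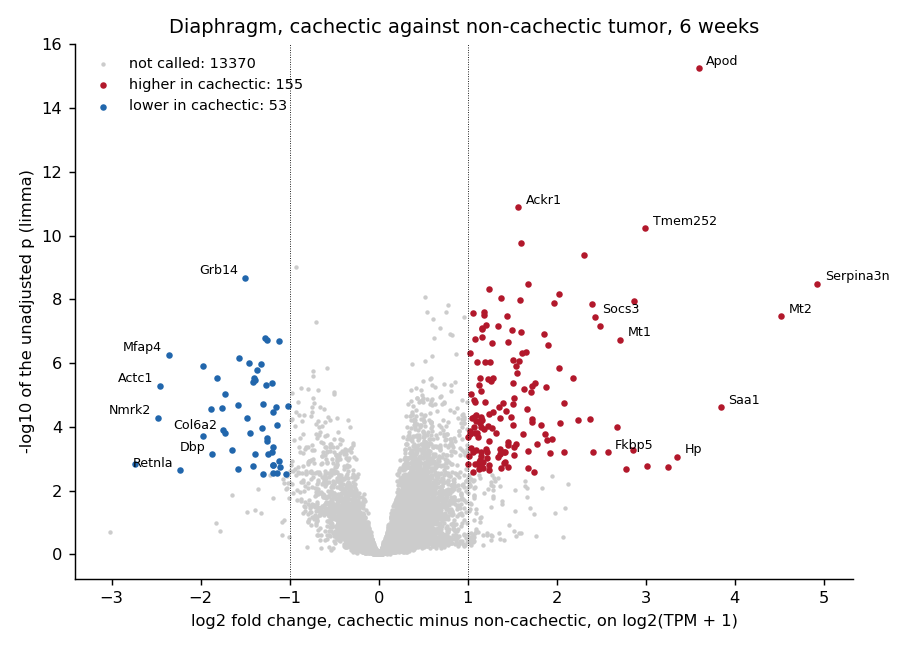
Each point is 1 of the 13578 genes tested, with the log2 fold change between cachectic and non-cachectic mice at 6 weeks on the x axis and -log10 of limma's unadjusted p on the y axis. The 155 red genes are higher and the 53 blue genes lower in cachectic mice (adjusted p under 0.05 and past a log2 fold change of 1, dotted lines), with Serpina3n farthest right at 4.93 and Apod highest.

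Acute phase proteins, which the liver secretes in inflammation and which other tissues can make, held the largest changes. Of 19 listed members tested, 8 were called higher and 0 lower, beside 1.14% of all genes, and the median log2 fold change was 1.26 beside 0.14 over all genes. Serpina3n, a secreted inhibitor of serine proteases, had 590.4, 216, 213, 263 and 216 TPM in cachectic mice and 10.1, 6.09, 6.75, 11.5 and 6.88 TPM in non-cachectic mice. Every cachectic mouse was therefore far above every non-cachectic one (log2 fold change 4.93 ± 0.70, adjusted p = 5.10e-06). Lcn2, lipocalin 2, which binds bacterial iron carriers, showed the same separation with 94.6, 24.5, 26.1, 22.03 and 33.1 TPM against 3.92, 3.196, 5.37, 3.08 and 3.58 TPM (log2 fold change 2.87 ± 0.43, adjusted p = 1.01e-05). Saa1, serum amyloid A, was nearly absent in non-cachectic mice at 0, 0.674, 0, 0.162 and 0.167 TPM and reached 18.99, 2.66, 6.703, 5.95 and 361 TPM in cachectic mice (log2 fold change 3.85 ± 0.83, adjusted p = 0.00209). Its level in cachectic replicate 5 was the one that set the group's spread, and the log2 fold change without that mouse was 2.75.

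The cachectic mouse with liver transcripts weighed on part of this list. Haptoglobin (Hp), which binds free hemoglobin, had 143, 100.2, 86.3, 26.01 and 730.2 TPM against 11.6, 17.01, 4.31, 14.6 and 10.9 TPM, with the groups apart (log2 fold change 3.35 ± 0.95, adjusted p = 0.0221). Itih4, an inter-alpha-trypsin inhibitor chain, had 13.7, 9.198, 8.47, 3.91 and 131 TPM against 1.91, 1.71, 0.582, 0.534 and 0.382 TPM (log2 fold change 3.02 ± 0.91, adjusted p = 0.0354). Serpina3m, a neighbor of Serpina3n, had 12.4, 4.58, 4.34, 5.91 and 44.98 TPM against 1.34, 0.595, 0.152, 0.372 and 0.05899 TPM (log2 fold change 2.86 ± 0.77, adjusted p = 0.0162). All 3 were highest in replicate 5. They belong to the 15 highest called fold changes chosen for groups that do not overlap. That the other 4 cachectic mice lay above all non-cachectic mice was therefore part of the choice. As each mouse was left out in turn, the adjusted p ran from 0.0136 to 0.0864 for Hp, from 0.0277 to 0.151 for Itih4 and from 0.0167 to 0.0671 for Serpina3m, each time highest without replicate 5. Without that mouse 5 members of the list were called and its median was 0.19. Without replicate 1, 4 were called. Of the 15 liver markers themselves 0 passed the test. Their summed level ranged from 24.96 to 5881 TPM (median 75.9) in cachectic and from 43.8 to 292.6 TPM (median 88.6) in non-cachectic mice, and Fabp1, Apoc3 and Ttr were listed at 0 in cachectic replicates 1 and 4. The log2 fold change of Serpina3n was 5.01 without replicate 5.

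**Figure D2:**
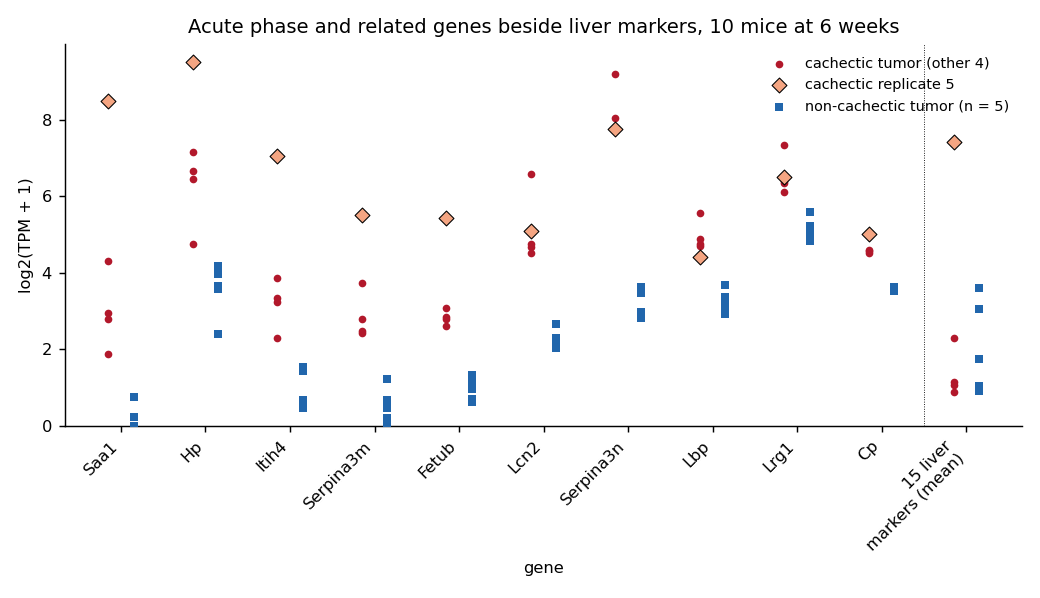
Values of log2(TPM + 1) in the 10 mice at 6 weeks for 10 acute phase and related genes, and on the right the mean of 15 liver markers. Cachectic replicate 5 (diamond) is the highest mouse for Saa1, Hp, Itih4, Serpina3m, Fetub, Cp and the liver markers, but not for Lcn2, Serpina3n, Lbp or Lrg1. In all 10 genes all 5 cachectic mice lie above the non-cachectic ones, beside 13.6% of all genes tested. The 10 were drawn from the called genes. Saa1, Hp, Itih4, Serpina3m, Lcn2 and Serpina3n were also named for groups that do not overlap, so part of this separation was set by the choice.

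Metallothioneins, small proteins that bind zinc and copper, rose together with 2 zinc carriers. Mt2 had 1176, 289.9, 335, 436 and 321 TPM in cachectic mice and 17.9, 16.3, 18.9, 24.7 and 13.95 TPM in non-cachectic mice (log2 fold change 4.53 ± 0.70, adjusted p = 1.80e-05). Mt1, which lies beside it on chromosome 8, had 1382, 439, 434, 496 and 421 TPM and 118, 76.2, 79.6, 81.3 and 73.7 TPM (log2 fold change 2.72 ± 0.45, adjusted p = 5.46e-05). In both genes replicate 1 stood above the other cachectic mice, and even the lowest cachectic mouse was above all non-cachectic ones. Both are among the 15 highest called fold changes chosen for groups that do not overlap, so that separation was part of the choice. Slc39a14 (ZIP14), which carries zinc and iron into cells, had 43.1, 12.4, 12.6, 12.8 and 15.1 TPM against 3.899, 3.57, 4.12, 3.33 and 3.59 TPM (log2 fold change 1.92 ± 0.53, adjusted p = 0.0184). Slc30a2, a zinc exporter, had 14.7, 10.2, 8.84, 13.9 and 10.2 TPM against 4.47, 3.28, 3.72, 3.52 and 4.13 TPM (log2 fold change 1.36 ± 0.37, adjusted p = 0.0157). These 4 were all the calls among 17 members tested, beside 1.14% of all genes called higher, and the median of the members was 0.35. Without cachectic replicate 1, the adjusted p of Slc39a14 was 0.117 and that of Slc30a2 0.0639, the highest as each mouse was left out (lowest 0.0250 and 0.0198), whereas Mt1 and Mt2 passed the test whichever mouse was left out.

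Part of the interleukin-6 family and STAT3 response was higher in cachectic mice, with 7 of 24 tested called higher, 0 lower and a median of 0.62. Over all genes 1.14% were called higher. Socs3, the feedback inhibitor of this pathway, had 61.7, 27.7, 32.6, 59.1 and 27.9 TPM against 7.21, 8.68, 8.52, 5.57 and 3.61 TPM (log2 fold change 2.43 ± 0.38, adjusted p = 1.80e-05). Osmr, the receptor for oncostatin M, had 21.8, 17.995, 17.3, 18.5 and 13.8 TPM against 4.96, 5.37, 6.11, 5.21 and 4.34 TPM (log2 fold change 1.6 ± 0.26, adjusted p = 3.98e-05). The spread among mice was small for this receptor, and the lowest cachectic mouse stood well above the highest non-cachectic one. The transcription factor Cebpd had 47.7, 36.4, 20.3, 29.7 and 13.6 TPM against 9.95, 8.88, 5.97, 8.51 and 2.45 TPM (log2 fold change 1.89 ± 0.48, adjusted p = 0.01). Junb, a part of the AP-1 complex, had 55.1, 52.8, 25.3, 44.6 and 16.4 TPM against 10.7, 12.001, 15.6, 12.9 and 10.7 TPM (log2 fold change 1.45 ± 0.37, adjusted p = 0.0112). Cebpd and Junb passed with less room, with adjusted p up to 0.0574 and 0.0627 as each mouse was left out (lowest 0.00505 and 0.00296), both highest without cachectic replicate 1. Without that mouse 3 members were called. Stat3 itself was not called, with 59.5, 50.9, 51.5, 41.7 and 36.2 TPM against 20.1, 22.2, 29.1, 22.1 and 17.8 TPM (log2 fold change 1.07 ± 0.36, adjusted p = 0.0676), although the groups did not overlap, and it passed the test after median-ratio scaling (0.92, adjusted p = 0.00255). For Il6ra, the receptor of interleukin-6, the values were 21.6, 14.1, 11.9, 11.2 and 11.5 TPM and 10.1, 6.22, 6.79, 11.1 and 6.95 TPM, which nearly met at their nearest (log2 fold change 0.70 ± 0.48, adjusted p = 0.497). The ligands Il6, Lif and Osm did not reach the level at which genes were tested.

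Of 21 tested targets of the glucocorticoid receptor, 6 were called higher, beside 1.14% of all genes, and 0 lower, with a median of 0.88. Fkbp5, a chaperone partner of the receptor whose gene the receptor induces, had 155, 58.6, 72.9, 71.03 and 55.3 TPM against 20.7, 5.67, 7.12, 14.6 and 19.3 TPM (log2 fold change 2.57 ± 0.71, adjusted p = 0.018). Hsd11b1, the enzyme that regenerates active glucocorticoid inside cells, had 21.9, 10.8, 13.8, 10.8 and 31.4 TPM against 3.29, 3.503, 2.73, 2.84 and 3.104 TPM (log2 fold change 2.08 ± 0.44, adjusted p = 0.00173). Errfi1, which restrains the EGF receptor, had 67.9, 50.9, 32.7, 34.6 and 59.7 TPM against 20.01, 20.5, 15.2, 15.95 and 9.82 TPM (log2 fold change 1.52 ± 0.43, adjusted p = 0.0204). In these 3 genes the groups did not overlap, beside 13.6% of all genes tested that lay apart with the cachectic mice above. Fkbp5 is among the 15 highest called fold changes chosen for groups that do not overlap, so its separation was part of the choice. The count for this list depended on 1 mouse, since without cachectic replicate 1 a single member was called, and the adjusted p then was 0.0825 for Fkbp5 and 0.0851 for Errfi1 (lowest 0.0206 and 0.0220 without another mouse). Hsd11b1 passed whichever mouse was left out, with adjusted p from 0.00215 to 0.0106. The receptor, Nr3c1, had 27.3, 35.3, 34.9, 27.97 and 29.4 TPM in cachectic and 33.5, 41.1, 40.2, 35.2 and 30.1 TPM in non-cachectic mice (log2 fold change -0.21 ± 0.19, adjusted p = 0.625).

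Clock genes held 2 calls higher and 1 lower among 19 tested, beside 1.14% and 0.39% of all genes. Dbp, a transcription factor under clock control, had 33, 40.7, 4.25, 73.3 and 38.2 TPM against 106, 109, 102, 95.1 and 121 TPM (log2 fold change -1.87 ± 0.52, adjusted p = 0.02). Nfil3, which represses the sites that Dbp activates, had 55.99, 60.3, 112, 24.3 and 37.1 TPM against 11.9, 8.05, 8.17, 14.6 and 8.83 TPM (log2 fold change 2.24 ± 0.51, adjusted p = 0.00384). Cachectic replicate 3 was the lowest for Dbp and the highest for Nfil3, and without it the log2 fold change of Dbp was -1.25 with an adjusted p of 0.143 (lowest 0.00985 without another mouse). Nfil3 passed without any 1 mouse. The hour at which each muscle was taken is not in the labels, and its part in these values was not tested.

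Chemokines, complement and macrophage genes were partly higher. Ccl8, which attracts monocytes, had 11.2, 26.6, 37.2, 10.9 and 26.5 TPM against 1.44, 2.601, 2.25, 8.96 and 0.397 TPM (log2 fold change 2.68 ± 0.64, adjusted p = 0.00543). Cxcl13, which attracts B cells, had 15.4, 11.7, 5.23, 91.1 and 43.6 TPM against 0.866, 1.42, 0.545, 2.996 and 1.45 TPM (log2 fold change 3.25 ± 0.99, adjusted p = 0.0354), and it failed the test in 7 of the 10 fits that each left out 1 mouse (adjusted p 0.0248 to 0.133) and after median-ratio scaling (adjusted p = 0.0607). Il33, an alarm cytokine of stromal cells, had 49.2, 39.4, 33.9, 43.3 and 32.8 TPM against 14.98, 14.6, 15.4, 13.7 and 14.5 TPM (log2 fold change 1.37 ± 0.31, adjusted p = 0.00357). In the other direction, Il15, a cytokine that muscle makes, had 4.71, 5.46, 5.199, 5.09 and 6.88 TPM against 15.7, 12.97, 12.3, 12.5 and 11.6 TPM, with no overlap (log2 fold change -1.12 ± 0.19, adjusted p = 5.89e-05). These were 3 calls higher and 1 lower among 27 chemokines and cytokines tested, beside 1.14% and 0.39% of all genes.

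Complement had 4 calls higher, beside 1.14% of all genes, and 0 lower among 24 tested, with a median of 0.64. Without cachectic replicate 5, the mouse with liver transcripts, 4 were called and the median was 0.40. Without cachectic replicate 1, 3 were called and the median was 0.64. C7, a part of the membrane attack complex, had 70.3, 47.9, 68.4, 34.6 and 32.2 TPM against 15.7, 11.8, 10.2, 10.5 and 11.1 TPM (log2 fold change 1.95 ± 0.49, adjusted p = 0.00981). C6, which acts just before C7, had 2.79, 1.43, 2.68, 1.301 and 1.88 TPM against 0.0909, 0.152, 0.0905, 0.354 and 0.138 TPM (log2 fold change 1.35 ± 0.21, adjusted p = 2.90e-05). Serping1, the inhibitor of the first component, was more abundant per transcript length than C6 and C7, with 323, 300.1, 367, 276 and 244 TPM against 123, 134, 158, 121 and 118 TPM (log2 fold change 1.20 ± 0.22, adjusted p = 2.01e-04).

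Among 14 macrophage markers tested 1 was called, beside 1.14% of all genes called higher. It was Cd163, the scavenger receptor for haptoglobin and hemoglobin, with 24.3, 13.99, 16.3, 15.9 and 11.3 TPM against 7.67, 4.52, 4.62, 6.55 and 4.31 TPM (log2 fold change 1.40 ± 0.30, adjusted p = 0.00172). The summed level of the list was 338.5 to 705.7 TPM (median 536.9) in cachectic and 317 to 580.7 TPM (median 353.3) in non-cachectic mice. Lyz2 and C1qa, the most abundant of these markers, did not pass the test (log2 fold change 0.14 and 0.76). Neutrophil markers were sparse, with 4 of 12 at a testable level and 0 called, and Ly6g, Elane and Mpo below it. Their sum was 17.0 to 32.0 TPM in cachectic and 2.54 to 18.7 TPM in non-cachectic mice. Of 32 interferon response and antigen presentation genes 0 were called or passed the test, with a median of -0.11. Hemoglobin of blood cells varied widely among cachectic mice, with Hbb-bs at 592, 7454, 1461, 574 and 1163 TPM against 2274, 4093, 3459, 4225 and 3933 TPM (log2 fold change -1.39 ± 0.66, adjusted p = 0.247), and 0 of 6 erythroid markers passed the test. The part of immune cell number in the called genes was not tested.

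Several of the largest changes belonged to none of these lists. Apod, apolipoprotein D, a secreted carrier of small lipids, had 243, 149.6, 155, 172 and 137 TPM in cachectic and 12.4, 13.3, 13.6, 13.98 and 11.5 TPM in non-cachectic mice. No other gene had so small an adjusted p in this comparison (log2 fold change 3.60 ± 0.31, adjusted p = 7.67e-12), and its log2 fold change stayed between 3.46 and 3.67 as each mouse was left out. Tmem252, which encodes a membrane protein, had 20.7, 8.01, 5.68, 14.7 and 5.76 TPM against 0.234, 0.478, 0.382, 0.3598 and 0.247 TPM (log2 fold change 3.00 ± 0.37, adjusted p = 2.68e-07). Syt12, of the synaptotagmin family of membrane trafficking proteins, had 17.4, 10.2, 10.9, 10.2 and 7.61 TPM against 1.79, 0.637, 0.688, 1.25 and 1.44 TPM (log2 fold change 2.49 ± 0.40, adjusted p = 2.90e-05). These 3 genes belong to the 15 highest called fold changes chosen for groups that do not overlap, so their separation was part of the choice. Each passed the test whichever mouse was left out. Gm5601, a predicted gene, was called as well (log2 fold change 2.78 ± 0.86, adjusted p = 0.0396), but the highest non-cachectic mouse at 11.8 TPM almost met the lowest cachectic mouse at 12.2 TPM, and it failed the test in 9 of 10 such fits.

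**Figure D3:**
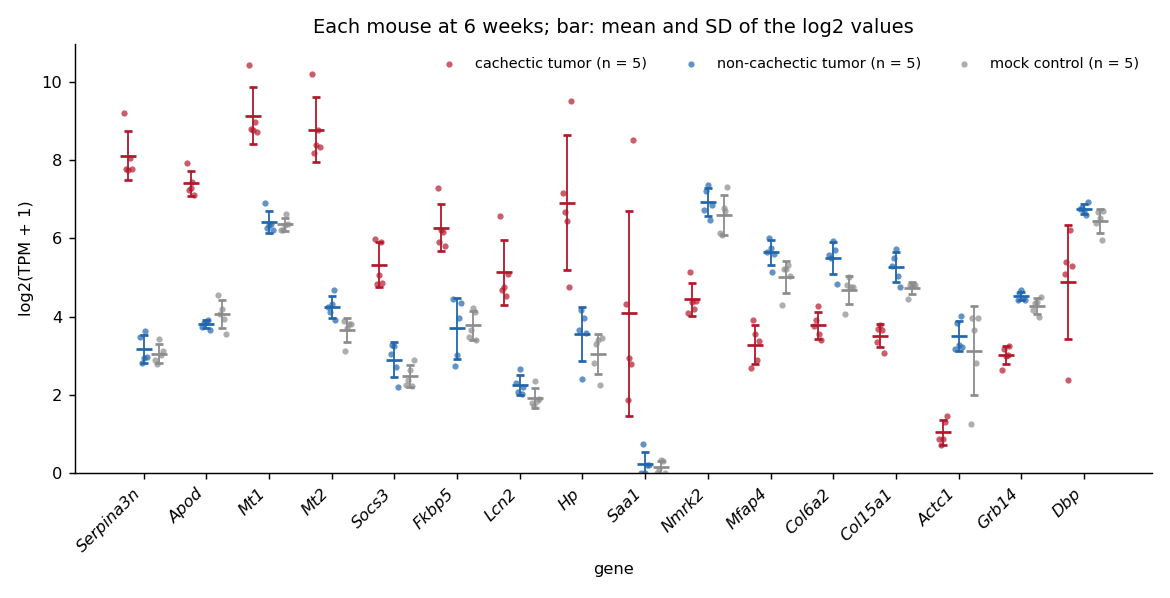
Every mouse at 6 weeks is 1 point on the log2(TPM + 1) scale, by gene and by group of 5, with a bar for the mean and SD of the group's log2 values. The first 9 genes are higher and the last 7 lower in cachectic mice, and for most genes the non-cachectic mice lie near the mock controls.

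Some of the called genes lie beside each other. Of the 147 genes called higher that have a position in the GENCODE annotation of GRCm38, 34 fell into 15 clusters of neighbors at most 100 kb apart, and of the 53 called lower, 4 fell into 2 clusters. How often other tested genes lie this close was not counted, so these numbers do not show that called genes cluster. The largest is the Serpina3 cluster on chromosome 12, where Serpina3e-ps (104189517 to 104192926, log2 fold change 1.66), Serpina3h (104247905 to 104253669, 1.51), Serpina3i (104263122 to 104269372, 1.04), Serpina3m (104338486 to 104394257, 2.86) and Serpina3n (104406729 to 104414329, 4.93) were all higher. These genes are close copies, and how reads that match several of them were divided is not given in the sources used here, so the values of the less abundant members are uncertain. The same holds for Mt1 and Mt2, for Csf2rb and Csf2rb2, the shared chain of the interleukin-3 and GM-CSF receptors and its copy, and for Ifi202b and Ifi205. Col6a1 and Col6a2 are neighbors on chromosome 10, and both fell. Tmem176a and Tmem176b overlap on opposite strands, as do Bcl3 and the antisense gene Gm16174, and without a stated strand setting in the counting, reads from the stretches they share cannot be told apart. These neighbors were named after their values were seen.

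Several collagens were lower in the cachectic diaphragm. Of 18 tested, 5 were called lower and 0 higher, beside 0.39% of all genes called lower, the median was -0.57, and 1 of the 18 had a positive log2 fold change. Col15a1, a collagen of the basement membrane zone, had 9.23, 11.8, 12.9, 11.6 and 7.47 TPM against 38.1, 44.5, 52.2, 31.8 and 26.02 TPM (log2 fold change -1.75 ± 0.42, adjusted p = 0.00619). The 3 chains of collagen VI, which links muscle fibers to their matrix, went the same way. Col6a2 had 12.5, 14.1, 18.2, 10.7 and 9.504 TPM against 46.2, 44.3, 59.8, 50.5 and 27.7 TPM (log2 fold change -1.73 ± 0.42, adjusted p = 0.0073). Col6a3 had 4.699, 6.896, 10.1, 5.88 and 5.33 TPM against 20.9, 21.9, 29, 17.3 and 10.5 TPM (log2 fold change -1.44 ± 0.35, adjusted p = 0.00755). In Col6a1, which was named after its values were seen, the cachectic mice had 37.4, 39.3, 42.4, 25.4 and 24.1 TPM and the non-cachectic mice 90.4, 87.04, 111, 98.99 and 58.7 TPM (log2 fold change -1.38 ± 0.38, adjusted p = 0.0196). None of these 4 genes overlapped between the groups, beside 3.3% of all genes tested that lay apart with the cachectic mice below. Col3a1, a fibrillar collagen, had 32.5, 62.1, 77.6, 43.04 and 40.96 TPM against 147, 163, 185, 104 and 84.97 TPM (log2 fold change -1.41 ± 0.43, adjusted p = 0.0342), with adjusted p from 0.0276 to 0.134 as mice were left out. Col1a1, the main fibrillar collagen, did not pass, with 19.7, 26.7, 40.4, 23.3 and 17.4 TPM against 80.6, 74.9, 95.6, 39.9 and 45.7 TPM (log2 fold change -1.35 ± 0.50, adjusted p = 0.0975). After median-ratio scaling Col1a1 was called (-1.50, adjusted p = 0.0136), as were 7 of the 18 collagens in all.

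The mock controls stood between the tumor groups for the collagens called lower. The median log2 difference of non-cachectic minus control over the 18 collagens was 0.56, and the control means were 25.6 ± 2.72 TPM for Col15a1, 25.3 ± 5.75 TPM for Col6a2 and 72.98 ± 13.6 TPM for Col3a1 (SD, n = 5). For cachectic minus control the differences were -1.21, -0.91 and -0.55. None of the genes tested was called between non-cachectic and control mice (limma, 100 genes at an unadjusted p under 0.05).

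Other matrix genes moved in both directions. Mfap4, a glycoprotein of elastic microfibrils, had 5.47, 14.04, 10.7, 6.37 and 9.44 TPM against 49.6, 63.1, 53.3, 34.5 and 47.7 TPM (log2 fold change -2.35 ± 0.41, adjusted p = 1.34e-04). Postn, periostin, had 1.24, 2.71, 2.395, 2.42 and 5.86 TPM against 5.94, 7.49, 7.304, 16.8 and 3.61 TPM, and 1 cachectic mouse overlapped with the other group (log2 fold change -1.18 ± 0.35, adjusted p = 0.0327). Postn failed the test in 7 of the 10 fits that each left out 1 mouse (adjusted p 0.0113 to 0.154). They were the 2 calls among 31 proteoglycans, elastic fiber and matricellular genes, both lower, beside 0.39% of all genes. Of these calls 1 was left without cachectic replicate 1 or without non-cachectic replicate 4. Decorin (Dcn), the most abundant of the fibroblast markers listed, was higher by adjusted p with 1123, 1058, 976, 1006 and 713 TPM against 566, 631, 659.7, 527 and 538 TPM (log2 fold change 0.73 ± 0.18, adjusted p = 0.00619), but not after median-ratio scaling (0.57, adjusted p = 0.156). Of 12 markers of fibro-adipogenic progenitors 0 were called, with sums of 1606 to 2376 TPM in cachectic and 1709 to 2213 TPM in non-cachectic mice. Among 24 matrix enzymes, Lox, which cross-links collagen, had 17.6, 14.6, 12.1, 14.6 and 7.83 TPM against 3.45, 4.48, 4.95, 3.796 and 2.88 TPM (log2 fold change 1.52 ± 0.31, adjusted p = 0.00136). Mmp3, a protease that cleaves matrix, had 1.84, 8.63, 4.25, 5.399 and 3.02 TPM against 0.6702, 0.483, 0.639, 0.164 and 0.226 TPM (log2 fold change 1.86 ± 0.31, adjusted p = 4.36e-05). Kera, keratocan, a proteoglycan listed as a tendon marker, had 0.288, 1.46, 1.29, 1.53 and 1.33 TPM against 12.04, 10.2, 12.1, 3.71 and 3.38 TPM (log2 fold change -1.97 ± 0.49, adjusted p = 0.00822). Chad, chondroadherin, a cartilage matrix protein, had 0.435, 1.92, 1.23, 3.06 and 1.14 TPM against 7.83, 5.93, 10.1, 4.42 and 5.64 TPM (log2 fold change -1.65 ± 0.45, adjusted p = 0.0162), with adjusted p from 0.0143 to 0.0814 as mice were left out. The other tendon markers gave no call, Scx was higher by adjusted p (0.86) and the list summed to 83.5 to 160.8 TPM in cachectic and 97.2 to 181.8 TPM in non-cachectic mice. The muscle was freed of tendon at dissection, per the study's methods, and the part of leftover tendon was not tested.

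**Figure D4:**
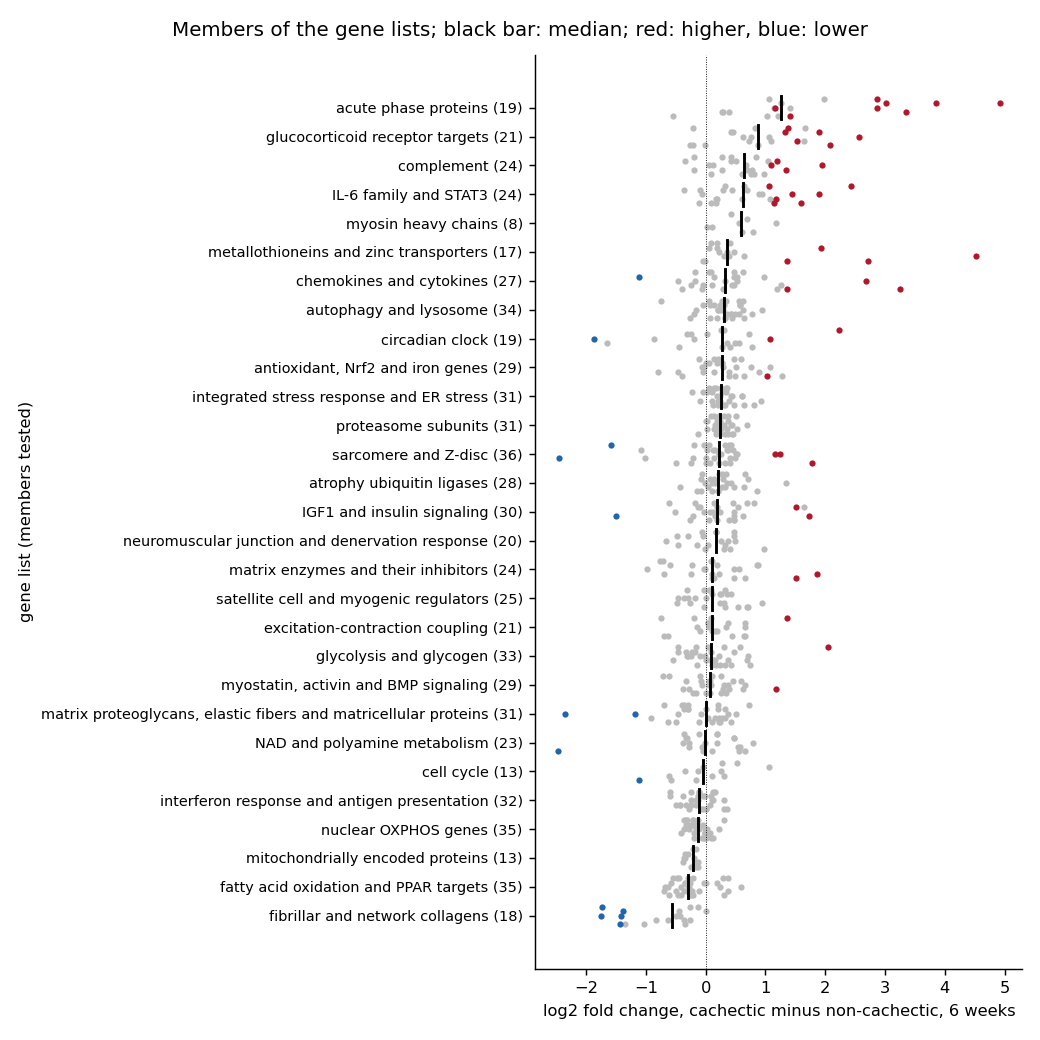
Each row is a gene list with the number of its members tested, each point the log2 fold change of a member between cachectic and non-cachectic mice at 6 weeks, and each black bar the median of the list. Acute phase genes have the highest median (1.26, or 0.19 without cachectic replicate 5), collagens the lowest (-0.57), and most lists lie near the median of all genes, 0.14.

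Genes of the contractile apparatus moved in both directions. Of 36 sarcomere and Z-disc genes, 3 were called higher and 2 lower, beside 1.14% and 0.39% of all genes, with a median of 0.22. Ankrd2, a stretch-responsive protein of the Z-disc and nucleus, had 719.5, 581, 507, 439 and 572 TPM against 70.9, 276, 278, 84.7 and 237 TPM (log2 fold change 1.78 ± 0.47, adjusted p = 0.0129). Des, desmin, the intermediate filament that ties Z-discs together, had 3656, 2500.0, 3007, 2917 and 2412 TPM against 979, 1338, 1333, 1034 and 1464 TPM (log2 fold change 1.24 ± 0.37, adjusted p = 0.0323). Actc1, the cardiac actin that skeletal muscle expresses in development, was the most reduced, with 0.834, 0.652, 0.827, 1.5 and 1.76 TPM against 8.06, 13.2, 8.64, 15.3 and 8.304 TPM (log2 fold change -2.45 ± 0.48, adjusted p = 7.37e-04). Ky, a peptidase needed for muscle integrity, had 9.01, 21.1, 29.3, 21.2 and 22.7 TPM against 62.7, 62.7, 55.5, 71.7 and 49.3 TPM (log2 fold change -1.58 ± 0.49, adjusted p = 0.0402). Actc1 passed whichever mouse was left out, whereas the adjusted p ran from 0.0104 to 0.0695 for Ankrd2, from 0.0338 to 0.114 for Des and from 0.0370 to 0.180 for Ky.

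None of the 8 myosin heavy chains tested passed the test, and all 8 had a positive log2 fold change with a median of 0.58. Myh1 (type 2X) had 11887, 9068, 6012, 10627 and 6484 TPM against 5108, 4742, 5058, 3978 and 6046 TPM (log2 fold change 0.78 ± 0.44, adjusted p = 0.36). Myh2 (type 2A) had 3844, 3285, 3348, 3443 and 3365 TPM against 3127, 3513, 3355, 2811 and 3209 TPM (log2 fold change 0.11 ± 0.30, adjusted p = 0.879), and its log2 fold change was -0.04 after median-ratio scaling. Myh4 (type 2B) was spread most, with 608, 551, 825, 258 and 32.03 TPM against 117, 194, 251, 72.6 and 497 TPM (log2 fold change 0.70 ± 0.86, adjusted p = 0.729). Myh7 (type 1) had 538, 376, 455, 630.2 and 464 TPM against 376, 276, 349, 270.2 and 336 TPM (log2 fold change 0.60 ± 0.40, adjusted p = 0.469). Of 21 excitation and contraction coupling genes 1 was called, beside 1.14% of all genes called higher. It was Cacng1, a subunit of the muscle calcium channel, with 92.2, 64.1, 54.97, 70.5 and 45.6 TPM against 20.3, 22.96, 31.3, 24.2 and 23.9 TPM (log2 fold change 1.35 ± 0.29, adjusted p = 0.00205). Sarcolipin (Sln), which lowers the efficiency of the calcium pump, was higher by adjusted p with 1607, 1315, 1785, 1578 and 1405 TPM against 773, 1035, 995, 1015 and 1071 TPM (log2 fold change 0.65 ± 0.20, adjusted p = 0.0342), but not after median-ratio scaling (0.50, adjusted p = 0.447). Of 20 junction and denervation genes and 25 satellite cell genes 0 were called. Myf6, a myogenic factor of mature fibers, was higher by adjusted p in TPM (log2 fold change 0.69 ± 0.18, adjusted p = 0.0156) and did not pass after median-ratio scaling (adjusted p = 0.140).

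Genes of protein breakdown held no call in TPM. None of 28 ubiquitin ligase and ubiquitin genes passed the test, with a median of 0.21. Trim63 had 477, 299.9, 152, 214 and 170.3 TPM in cachectic mice and 95.1, 117, 121, 63.5 and 85.7 TPM in non-cachectic mice, with no overlap between the groups (log2 fold change 1.34 ± 0.45, adjusted p = 0.061). It was called after median-ratio scaling (1.19, adjusted p = 0.0470). Fbxo32 had 279, 198, 117, 209 and 119 TPM and 177, 143, 119, 99.02 and 104 TPM, and the groups overlapped (log2 fold change 0.47 ± 0.44, adjusted p = 0.639). Foxo1, the factor that drives both, had 23.96, 11.7, 10.6, 10.1 and 10.004 TPM and 10.1, 7.55, 9.004, 9.46 and 9.47 TPM, where cachectic replicate 1 stood apart (log2 fold change 0.42 ± 0.37, adjusted p = 0.612, or 0.20 without that mouse). Of 31 proteasome subunits 9 were higher by adjusted p, beside 4.28% of all genes, 0 were called, and 30 had a positive log2 fold change, with a median of 0.25. After median-ratio scaling 2 passed the test and the median was 0.09, and without cachectic replicate 1 also 2 passed. Of 34 autophagy and lysosome genes 4 were higher by adjusted p, beside 4.28% of all genes. They were Map1lc3b (0.77), Gabarap (0.44), Lamp2 (0.56) and Ctsl (0.94), whose products are autophagosome proteins, a lysosome membrane protein and a lysosomal protease. These 4 were named after their values were seen.

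Growth factor signaling held single calls. Igfbp3, which binds IGF1 in the circulation, had 225, 65.3, 52.3, 65.1 and 44.2 TPM against 19.02, 21.7, 29.3, 16.1 and 24.8 TPM (log2 fold change 1.72 ± 0.39, adjusted p = 0.00371). Eif4ebp1, the translation repressor that mTOR inactivates, had 360.0, 263, 176, 245 and 165 TPM against 92.03, 88.6, 78.3, 61.5 and 88.02 TPM (log2 fold change 1.51 ± 0.27, adjusted p = 1.90e-04). Grb14, an adapter that inhibits the insulin receptor, was lower with little spread, at 5.23, 8.09, 6.93, 7.14 and 8.58 TPM against 20.6, 23.2, 24.4, 21.4 and 20.4 TPM (log2 fold change -1.5 ± 0.21, adjusted p = 4.06e-06). All 3 passed whichever mouse was left out, and they were the calls among 30 tested genes of this list. Over all genes 1.14% were called higher and 0.39% lower. Igf1 had 5.75, 5.79, 7.73, 3.82 and 13.6 TPM against 6.91, 8.97, 8.19, 6.95 and 5.88 TPM (log2 fold change -0.10 ± 0.29, adjusted p = 0.893). Mstn, myostatin, which limits muscle growth, had 21.3, 22.2, 22.4, 21.6 and 24.99 TPM against 51.1, 22.6, 16.2, 19.2 and 34.7 TPM (log2 fold change -0.22 ± 0.46, adjusted p = 0.844). Neither passed, and neither kept its sign as each mouse was left out. Among 29 genes of myostatin, activin and BMP signaling 1 was called, beside 1.14% of all genes called higher. It was Nog, noggin, an antagonist of BMPs that protect muscle mass, with 23.5, 22.7, 25.9, 21.3 and 14.2 TPM against 10.05, 9.98, 9.79, 7.03 and 7.75 TPM (log2 fold change 1.17 ± 0.34, adjusted p = 0.0292, adjusted p from 0.0195 to 0.0853 as mice were left out).

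Among metabolic genes Nmrk2 changed most. Nmrk2, the muscle kinase that makes NAD from nicotinamide riboside, had 16.1, 34.5, 19.9, 17.2 and 19.98 TPM against 104, 146, 163, 87.7 and 115 TPM, with the highest cachectic mouse well under the lowest non-cachectic one (log2 fold change -2.48 ± 0.56, adjusted p = 0.00359). It was the only call among 23 NAD and polyamine genes and passed whichever mouse was left out. Of 35 fatty acid oxidation genes and PPAR targets 7 were lower by adjusted p, beside 1.57% of all genes, 0 were called and 27 had a negative log2 fold change, with a median of -0.29. Fabp3, the fatty acid carrier of muscle, had 3129, 3194, 3867, 2851 and 3934 TPM against 5783, 5593, 5286, 4974 and 5422 TPM (log2 fold change -0.68 ± 0.14, adjusted p = 8.82e-04), and after median-ratio scaling it just missed the test (-0.84, adjusted p = 0.0503). Of 35 nuclear genes of oxidative phosphorylation 4 were lower by adjusted p (median -0.12), and of 13 mitochondrially encoded ones 3 (median -0.21), beside the lower mitochondrial share given above. After median-ratio scaling the counts were 13, 5 and 0, and without cachectic replicate 1 they were 4, 0 and 1. Of 33 glycolysis and glycogen genes 1 was called, beside 1.14% of all genes called higher. It was Ppp1r3c, which brings a phosphatase to glycogen, with 383, 292, 900.2, 159.5 and 208 TPM against 75.6, 70.1, 92.7, 91.2 and 60.3 TPM (log2 fold change 2.04 ± 0.47, adjusted p = 0.0043). Among 29 antioxidant and iron genes 1 was called, beside the same 1.14% of all genes. It was Steap4, a metalloreductase, with 49.4, 43.1, 41.1, 48.8 and 46.3 TPM against 18.1, 24.998, 25.7, 19.9 and 21.5 TPM (log2 fold change 1.03 ± 0.18, adjusted p = 1.25e-04). Of 31 genes of the integrated stress response 0 were called and 2 were higher by adjusted p, beside 4.28% of all genes.

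The remaining genes named for a low fold change include a receptor and ligand pair of vessels. Aplnr, the apelin receptor of endothelium, had 0.927, 1.12, 2.31, 3.71 and 1.398 TPM against 8.26, 14.8, 12.1, 6.05 and 6.62 TPM (log2 fold change -1.88 ± 0.41, adjusted p = 0.00226). Its ligand Apln had 0.625, 1.02, 0.867, 2.01 and 1.25 TPM against 3.98, 6.298, 5.04, 5.42 and 3.53 TPM (log2 fold change -1.45 ± 0.26, adjusted p = 2.17e-04). Receptor and ligand were thus both lower with no overlap between groups, beside 3.3% of all genes tested that lay apart in this direction. Aplnr is among the 15 lowest called fold changes chosen for groups that do not overlap, so its separation was part of the choice. Plvap, a protein of the endothelial diaphragms that cover fenestrae, was higher, with 41.1, 36.2, 30.8, 29.9 and 26.3 TPM against 15.8, 16.5, 21.2, 13.1 and 12.7 TPM (log2 fold change 1.01 ± 0.28, adjusted p = 0.0209, adjusted p from 0.0192 to 0.0853 as mice were left out). Endothelial markers as a list gave these 3 calls among 15, 1 higher and 2 lower, beside 1.14% and 0.39% of all genes. The list had a median of 0.32 and sums of 315.3 to 485.2 TPM in cachectic and 307 to 390 TPM in non-cachectic mice. Lgr6, a receptor for R-spondins, had 1.38, 2.399, 1.38, 0.601 and 1.29 TPM against 6.16, 11.1, 9.103, 6.01 and 9.903 TPM (log2 fold change -1.98 ± 0.36, adjusted p = 2.48e-04). Prnd, a relative of the prion protein, was nearly absent at 0, 0.0193, 0.0521, 0 and 0.0805 TPM against 2.19, 4.41, 1.69, 3.53 and 0.316 TPM (log2 fold change -1.58 ± 0.34, adjusted p = 0.00185). Nrep, a neuronal regeneration-related protein, had 12.1, 20.6, 26.9, 26.4 and 30.2 TPM against 69.9, 94.1, 104, 58.9 and 69.7 TPM (log2 fold change -1.76 ± 0.38, adjusted p = 0.00221). Sbk2, a kinase, had 10.1, 6.15, 6.96, 7.21 and 7.48 TPM against 35.6, 30.9, 37.3, 15.3 and 23.3 TPM (log2 fold change -1.73 ± 0.35, adjusted p = 0.0011). These 4 genes passed whichever mouse was left out. Among 13 cell cycle genes 1 was called, beside 0.39% of all genes called lower. It was Ccnd1, cyclin D1, with 2.45, 4.48, 3.16, 2.54 and 4.27 TPM against 5.73, 13.3, 10.3, 10.4 and 4.73 TPM (log2 fold change -1.12 ± 0.33, adjusted p = 0.0274, adjusted p from 0.0184 to 0.104 as mice were left out). Retnla, which alternatively activated macrophages secrete, was lower on average, with 11.1, 27.2, 18.1, 27.3 and 17.4 TPM against 42.5, 47.6, 38.5, 3055 and 28.8 TPM (log2 fold change -2.23 ± 0.69, adjusted p = 0.0428), but the size rested on non-cachectic replicate 4, without which the log2 fold change was -0.97 and the adjusted p 0.363 (lowest 0.0237 without another mouse).

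Of the other marker lists, adipocyte genes summed to 1198 to 3029 TPM in cachectic and 1484 to 2295 TPM in non-cachectic mice with 0 of 12 called. Lymphocyte genes summed to 21.8 to 1931 TPM and 43.2 to 368.2 TPM with 0 of 10 called, the highest again in cachectic replicate 5, where Igkc was at 1189 TPM. Schwann cell (0 of 9) and mesothelium markers (0 of 9) held no call. The 1 call among 9 smooth muscle and pericyte markers was Des, which muscle fibers also express, beside 1.14% of all genes called higher. Of 8 melanocyte lineage markers 3 reached the level tested, 0 were called, and their sums were 9.93 to 11.8 TPM and 10.2 to 11.99 TPM. Of 10 pancreas and gut markers 1 was tested. Fibcd1, a factor secreted by muscle that the study examined, was listed at 0 TPM in all 10 mice and was not tested.

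The same tumors were compared in other mice 2 weeks later and 2 weeks earlier, and their values stand here beside those of the genes called at 6 weeks. At 8 weeks, with 7 cachectic and 5 non-cachectic mice, 154 of the 155 genes higher at 6 weeks had the same sign, beside 38.9% of all genes with a positive sign, and 102 were called higher again, which is 65.8% of the 155 and 65.0% of the 157 genes (1.16%) called higher at 8 weeks. Of the 53 lower genes 52 had the same sign, beside 61.1% of all genes, and 42 were called, which is 79.2% of the 53 and 22.5% of the 187 genes (1.38%) called lower then. The median log2 fold change of the higher genes was 1.41 at 6 and 1.19 at 8 weeks, and that of the lower genes -1.38 and -1.41. These genes were chosen by their size at 6 weeks, which can enlarge the medians of that week only. The medians of different weeks are therefore not a like comparison. The exceptions in sign, named after their values were seen, were Gm5601 (-0.31 at 8 weeks) and Gm10146 (0.00), a processed pseudogene with the lowest fold change of all calls at 6 weeks (log2 fold change -2.74 ± 0.82, adjusted p = 0.0321) and groups that overlapped then (12.2, 0, 25.01, 0.504 and 0 TPM against 14.5, 32.1, 22.5, 20.1 and 26.03 TPM).

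Several genes with large changes at 6 weeks were called at 8 weeks as well. The log2 fold change of Serpina3n was 5.24, of Mt2 4.88, of Saa1 4.08, of Apod 3.19 and of Socs3 2.32. Among the lower genes it was -3.27 for Nmrk2, -2.45 for Mfap4, -1.90 for Actc1 and -2.25 for Col15a1. Collagens had 9 calls lower among 18 at 8 weeks with a median of -0.95, against 5 and -0.57 at 6 weeks. The values for Cxcl13 (1.74), Retnla (-0.46) and Des (0.46) did not pass the test at 8 weeks. Cachectic replicate 3 of that week listed 15263 genes, with 57.1% of TPM from mitochondrial transcripts and 231.8 TPM of Des. The other cachectic mice of that week had 2226 to 3635 TPM of Des and the non-cachectic mice 1115 to 1896 TPM. All counts and log2 fold changes at 8 weeks include this library and are not given without it. The change from 6 to 8 weeks was itself tested gene by gene, and 0 genes were called (limma, 345 at an unadjusted p under 0.05), so none of these differences between the weeks passed.

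At 4 weeks 4 genes were called, all higher in cachectic mice, beside 697 at an unadjusted p under 0.05. They were Socs3 (2.18), Apod (1.95), Tmem176b (1.05), a membrane protein of antigen-presenting cells, and 4930512H18Rik, which was not called at 6 weeks (log2 fold change 0.82). Tmem176b and 4930512H18Rik were named after their values were seen. Serpina3n was at 2.58, Mt2 at 2.31 and Nmrk2 at -2.23 without passing the test. The signs at 4 weeks already matched those at 6 weeks in 154 of the 155 higher genes, beside 65.9% of all genes, and in 50 of the 53 lower genes, beside 34.1%. The medians were 0.73 and -0.71, for genes chosen by their size at 6 weeks, so smaller values at 4 weeks may come from that choice. The difference between 6 and 4 weeks gave 0 calls (limma, 249 at an unadjusted p under 0.05), or 68 with array quality weights.

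**Figure D5:**
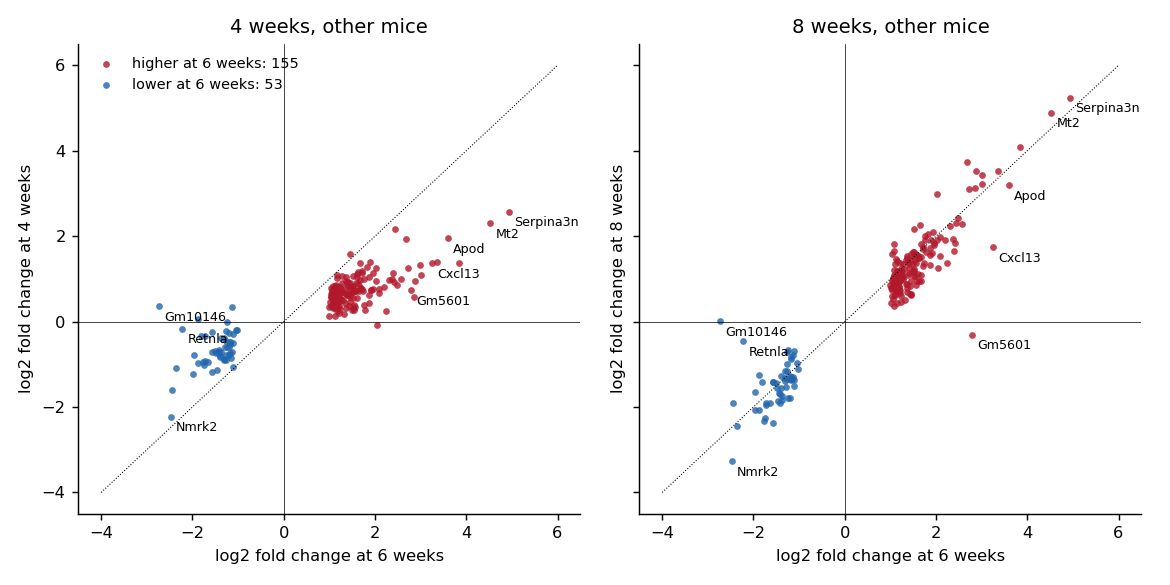
Each point is 1 of the 208 genes called at 6 weeks, with its log2 fold change between cachectic and non-cachectic mice at 6 weeks on the x axis and the same in other mice at 4 weeks (left) or 8 weeks (right) on the y axis. Most points lie nearer to 0 than the dotted line of equality at 4 weeks and close to it at 8 weeks (medians of the red genes 0.73, 1.41 and 1.19 at 4, 6 and 8 weeks). The genes were chosen by their size at 6 weeks, which can enlarge the values of that week only.

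The mock controls at 6 weeks were compared with each tumor arm, and these comparisons share samples with the one above. For the 155 higher genes the median log2 difference was 1.42 between cachectic and control mice and 0.06 between non-cachectic and control mice. For the 53 lower genes it was -1.12 and 0.24. Over all genes, 175 were called higher and 31 lower in cachectic against control mice, and 0 in non-cachectic against control mice. Serpina3n stood at 7.39 ± 1.48 TPM in controls, Mt2 at 11.9 ± 2.42 TPM, Apod at 16.2 ± 4.28 TPM, Nmrk2 at 101 ± 37.3 TPM and Grb14 at 18.5 ± 2.63 TPM (SD, n = 5). Cxcl13 was an exception, with a control mean of 8.08 ± 7.94 TPM, above the non-cachectic mice, and so were the collagens described above.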

How the data were processed

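Diaphragm RNA was sequenced as paired reads on an Illumina instrument. The authors deposited TPM values per gene, made by trimming the reads, aligning them to the mouse genome (mm10) and quantifying them in CLC Genomics Workbench. The labels name a stranded mRNA kit and the study's methods an unstranded one. TPM sums to the same total in every library, so the depth is unknown and no counting error can be given. Mitochondrial transcripts share that total with all others and can shift every other value.

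Here log2(TPM + 1) was fitted with limma 3.58.1 in R 4.3.3, with a mean for each of 12 conditions over 62 libraries and a trended prior, for 13578 of 47643 genes (TPM of at least 1 in at least 5 libraries). P-values were adjusted by the method of Benjamini and Hochberg. The fit was tested on simulated data. Library measures were compared by exact permutation tests. Figures were drawn with Python 3.11.15 and matplotlib 3.10.9.

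Members of the gene lists and the genes of interest were chosen with earlier results of these data known. Genes were named if among the 15 highest or lowest called fold changes without overlap, if among the 4 largest called changes of a list (or, with fewer than 2 calls, the 2 most abundant members), or if of stated interest. No label says that mice of a group share a source, and no pair of libraries was identical. Other pseudocounts, filters, scalings, weights, tests, a replicate block and fits without each mouse were tried. A few results are not reported here.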

Additional observations from a re-analysis of the deposited data

Results flagged for a closer look

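Of 266 groups of 5 values examined for the named genes, 17 held a mouse whose gap to the next exceeded 0.71 of the group's range (Dixon's criterion), where chance gives about 1 in 20. Of these, 10 were cachectic replicate 1. This mouse had 590.4 TPM of Serpina3n where the other cachectic mice had 213.1 to 263.2, 1382 TPM of Mt1 (others 421 to 496), 94.6 TPM of Lcn2 (22.0 to 33.1) and 155 TPM of Fkbp5 (55.3 to 72.9). It also had 43.1 TPM of Slc39a14 (12.4 to 15.1), 225 TPM of Igfbp3 (44.2 to 65.3), 24.0 TPM of Foxo1 (10 to 11.7) and 12.6 TPM of S100a8 (3.90 to 5.36). In the other direction it had 0.288 TPM of Kera (1.29 to 1.53) and 9.01 TPM of Ky (21.1 to 29.3).

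Cachectic replicate 2 had 34.5 TPM of Nmrk2 (others 16.1 to 19.98). Among non-cachectic mice, replicate 4 had 3055 TPM of Retnla (28.8 to 47.6), 157 TPM of Ighm (24.3 to 38.5) and 0.354 TPM of C6 (0.0905 to 0.152). Replicate 1 had 117.5 TPM of Mt1 (73.7 to 81.3) and 773 TPM of Sln (995 to 1071), and replicate 5 had 131 TPM of Atf4 (151 to 160).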

How the results depend on the processing

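The main counts were 155 genes higher and 53 lower. As each mouse was left out they ran from 95 to 170 and from 36 to 57, both lowest without cachectic replicate 1. The number lower was 84 with a pseudocount of 0.1, 80 with median-ratio scaling and 87 with quantile normalization. By adjusted p alone 581 were higher and 213 lower. Dunn's test gave 0 and 0 after adjustment over all genes (3608 at an unadjusted p under 0.05, of which 186 higher and 63 lower passed the fold limit). The difference between 6 and 4 weeks gave 68 calls with array weights and 0 otherwise. The cause was not tested. A pair of alternatives was chosen after seeing the data. Without the 4 libraries that list the fewest genes the counts were 195 and 65, and without 3 control libraries with liver transcripts 166 and 50. By adjusted p alone 3700 and 802 genes passed in these 2 fits, beside 794 in the main fit.

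With the replicate number as a block 157 genes were higher and 49 lower. Deviations of mice sharing a number correlated at -0.092, -0.062, 0.229, -0.036 and -0.193, and 1 of 5 correlated best with its own number. These 5 values showed no pairing by number but are too few to exclude it. With the block Trim63 (adjusted p = 0.0340) and Gadd45a (0.0497) passed the test, and Gm5601 (0.0502) and Retnla (0.0537) did not. Over all limma alternatives the adjusted p ran from 1.67e-04 to 0.247 for Trim63, from 2.58e-04 to 0.230 for Col1a1 and from 1.56e-11 to 0.189 for Stat3, each lowest with array weights and highest without cachectic replicate 1.

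No called gene among those named reversed under any alternative. Uncalled genes did. Alb was -0.82 with a pseudocount of 0.1, -0.16 with 0.5 and -2.06 with weights. With median-ratio scaling Myh2 was -0.044, Mef2c -0.15, Aldoa -0.039, B2m -0.15, Cyp2e1 -0.031, Lyz2 -0.016, Ighm -0.045 and Msln -0.062. With quantile normalization Mef2c was -0.16, mt-Co3 0.017, B2m -0.16, Cyp2e1 -0.053, Lyz2 -0.035, Ighm -0.042 and Msln -0.053. With weights B2m was -0.032, Cyp2e1 -0.58, Ighm -0.16 and Upk3b 0.066. As a ratio of means Cfd was 0.27. As each mouse was left out, Alb ran from -1.85 to 0.99, B2m from -0.0799 to 0.14, Cfd from -0.67 to 0.37, Cyp2e1 from -0.69 to 0.62, Igf1 from -0.33 to 0.072, Ighm from -0.84 to 0.64, Lyz2 from -0.048 to 0.28, Mef2c from -0.0501 to 0.11, Mitf from -0.065 to 0.018, Msln from -0.11 to 0.35, Mstn from -0.39 to 0.013, Oaz1 from -0.046 to 0.025, Rgs5 from -0.083 to 0.052 and Upk3b from -0.20 to 0.14. Of 62 called and named genes 40 passed the test whichever mouse was left out.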
